A study of Mus musculus with 21 samples.

Results

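Cholesterol homeostasis was followed through 30 mouse genes on 21 one-colour expression arrays of MIN6m9 cells, a subclone of the MIN6 line derived from a mouse insulinoma, a tumour of insulin-secreting beta cells. The members were chosen by name from textbook roles, but with earlier results of these data known. Counts of members set beside shares of all entries are therefore descriptive. Each member was found through the RefSeq accession of its probe, and all 30 of 30 were matched, among 20145 named genes on the array. They fall into 18 enzymes of sterol synthesis, 4 regulators of the SREBP pathway, 3 proteins of sterol transport, and 5 genes of the liver X receptor (LXR) and efflux branch. No lipoprotein receptor is among them, so uptake is represented by the transport proteins and by Mylip, an enzyme that marks lipoprotein receptors for degradation.

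The study had 2 experiments. In the first, wild-type MIN6m9 cells were left untreated or received 400 uM oleate, an unsaturated fatty acid, or 400 uM palmitate, a saturated one, for 48 h (3 arrays per group). In the second, MIN6m9 cells carrying Fv2E-PERK, a form of the stress kinase PERK that is activated when the drug AP20187 joins its copies, were given 1 nM AP20187 for 6, 12, 24 or 48 h, or ethanol alone as a mock; wild-type cells were also mock-treated (2 arrays per group). The sources used here give neither the transgene's promoter, nor whether the line is 1 clone, nor when untreated and mock cells were harvested. Wild-type cells given AP20187 are not among the arrays. An effect of the drug itself therefore cannot be told apart from activation of Fv2E-PERK in any comparison of AP20187 with mock. Nothing in the labels says that the arrays of a group came from separate cultures, so p-values reflect the spread between these arrays alone, and that spread may be technical.

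Cells make cholesterol from acetyl-CoA through the mevalonate pathway, squalene and a series of sterol intermediates. When sterols in the endoplasmic reticulum fall, the escort protein SCAP carries SREBP2, the product of Srebf2, to the Golgi, where proteases release a transcription factor that binds sterol elements in the promoters of the synthesis genes, often together with the factor NF-Y. When sterols are high, the INSIG proteins hold SCAP back, and oxidised sterols activate the LXR receptors, which induce the efflux pumps ABCA1 and ABCG1. In beta cells, cholesterol content is known to affect insulin granules and secretion.

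The promoters show what the synthesis genes have in common outside the arrays. RefSeq promoter windows of 300 bases, 250 before to 50 after a start on mouse assembly GRCm38.p6, were found for 24 of the 30 members. The NF-Y box CCAAT, searched on both strands, was present in 14 of 15 synthesis genes with a window (93.3%), in 3 of 4 SREBP regulators and in 1 of 4 LXR and efflux genes, against 41.1% of 27025 genes and 37.4% of 32851 windows in the table. The core of the sterol element, TCACNCCAC on either strand, was present in 1 synthesis gene, Hmgcs1, against 1.24% of all windows. A direct repeat of AGGTCA spaced by 4 bases with at most 2 mismatches, the pattern LXR receptors bind, was present in 1 member, Dhcr7, and in 3.02% of all windows. These are matches of letters, not binding sites. Windows are shown for 3 enzymes that rose with palmitate, for the feedback regulator Insig1, for 2 synthesis members that did not rise, and for the LXR gene Nr1h3. The other synthesis member that did not rise, Mvk, is not shown, and its window holds 5 NF-Y boxes. Capitals mark the matches to any of the 3 motifs.
Hmgcs1, chr13:119690101-119690400, plus strand: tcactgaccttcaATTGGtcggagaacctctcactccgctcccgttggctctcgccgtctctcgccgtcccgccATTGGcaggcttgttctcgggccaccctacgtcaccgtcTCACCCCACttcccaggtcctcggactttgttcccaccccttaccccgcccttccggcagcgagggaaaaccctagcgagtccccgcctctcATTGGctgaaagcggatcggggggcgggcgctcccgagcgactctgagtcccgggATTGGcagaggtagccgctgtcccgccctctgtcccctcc
Msmo1, chr8:64733529-64733828, minus strand: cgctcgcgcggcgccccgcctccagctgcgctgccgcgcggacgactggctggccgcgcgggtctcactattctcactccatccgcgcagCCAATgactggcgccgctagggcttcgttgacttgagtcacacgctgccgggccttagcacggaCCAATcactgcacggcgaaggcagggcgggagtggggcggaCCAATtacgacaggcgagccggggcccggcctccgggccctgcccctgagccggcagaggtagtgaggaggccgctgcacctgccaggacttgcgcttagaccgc
Cyp51, chr5:4104648-4104947, minus strand: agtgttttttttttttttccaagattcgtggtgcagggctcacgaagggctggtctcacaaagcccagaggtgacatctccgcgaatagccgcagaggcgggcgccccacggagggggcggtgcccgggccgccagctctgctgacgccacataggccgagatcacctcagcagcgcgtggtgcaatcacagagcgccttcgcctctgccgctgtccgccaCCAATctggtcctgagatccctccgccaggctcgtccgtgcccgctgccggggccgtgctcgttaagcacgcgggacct
Insig1, chr5:28071162-28071461, plus strand: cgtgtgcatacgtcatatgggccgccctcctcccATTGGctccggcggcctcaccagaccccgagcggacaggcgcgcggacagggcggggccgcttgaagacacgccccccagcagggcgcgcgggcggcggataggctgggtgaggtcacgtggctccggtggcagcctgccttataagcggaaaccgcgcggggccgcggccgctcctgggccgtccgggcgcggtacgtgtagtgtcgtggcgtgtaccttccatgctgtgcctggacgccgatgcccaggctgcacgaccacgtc
Ebp, chrX:8193463-8193762, minus strand: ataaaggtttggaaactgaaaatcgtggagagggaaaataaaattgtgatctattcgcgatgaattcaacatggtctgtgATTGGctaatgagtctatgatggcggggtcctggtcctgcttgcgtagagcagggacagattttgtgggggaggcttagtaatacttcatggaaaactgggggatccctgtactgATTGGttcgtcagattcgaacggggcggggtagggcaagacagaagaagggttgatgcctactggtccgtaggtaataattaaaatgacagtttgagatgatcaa
Acat2, chr17:12960676-12960975, minus strand: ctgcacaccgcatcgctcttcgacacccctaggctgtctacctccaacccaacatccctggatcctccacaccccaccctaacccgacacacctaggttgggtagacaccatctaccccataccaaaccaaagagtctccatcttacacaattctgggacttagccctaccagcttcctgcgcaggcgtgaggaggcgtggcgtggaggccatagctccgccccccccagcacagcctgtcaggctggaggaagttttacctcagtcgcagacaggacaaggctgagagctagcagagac
Nr1h3, chr2:91195067-91195366, minus strand: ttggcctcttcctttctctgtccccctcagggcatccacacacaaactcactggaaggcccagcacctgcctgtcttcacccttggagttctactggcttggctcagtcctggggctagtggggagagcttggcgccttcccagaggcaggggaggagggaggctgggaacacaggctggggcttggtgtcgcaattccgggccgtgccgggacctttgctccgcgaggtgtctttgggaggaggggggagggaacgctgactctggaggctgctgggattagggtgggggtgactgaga
In Hmgcs1 the sterol core begins at position -137 from the start, and 4 NF-Y boxes begin at -237, -176, -45 and 11. In Msmo1 the 3 boxes begin at -160, -96 and -55. The windows of Acat2 and Nr1h3 hold no match, which says only that these letters are not in them.

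Values below are log2 signals minus the array's 75th percentile, so that a change of 1 is a doubling relative to that percentile; errors of changes are standard errors of the limma fit, and a gene rose or fell where the Benjamini-Hochberg adjusted p over all entries was under 0.05. All 30 members were well above background on all 21 arrays except Nr1h3, on 20, so every member passed the filter on dim probes. The signal at the 75th percentile was 335.8 to 459.1 on the fatty acid arrays and 380.5 to 823.3 on the PERK arrays. The median of 10 beta cell genes was 3.37 to 3.92 on the untreated, fatty acid and mock arrays and 2.37 to 2.78 with AP20187; a lower level cannot be told apart from fewer cells of that kind. Markers of exocrine cells were above background for 0 or 1 of 4 genes. Those of adipocytes were so for 1 to 3 of 4 genes on palmitate arrays (median -6.58 to -2.18). The adipocyte count was 1 or 2 on untreated arrays and 1 with oleate. Fibroblast markers were above background for 3 or 4 of 5 genes with palmitate, 2 or 3 untreated and 3 with oleate. Heart muscle genes set the fatty acid arrays apart: the median of 9 was -0.93 to 0.19 on untreated and oleate arrays and -6.81 to -4.47 on palmitate arrays, and that of 12 skeletal muscle genes was -5.99 to 0.32 on palmitate arrays, the highest on replicates 1 and 2. On the fatty acid arrays, palmitate replicate 3 lay alone on slide 2. Untreated replicate 2 stood apart from its group. The standard deviation of its difference over the tested entries was 0.688 from replicate 1 and 0.665 from replicate 3, against 0.321 between those. It also had 379 outlier spots, the most of the 21 arrays, and it enters every change from untreated cells. On the PERK arrays, the wild-type mock and 48 h arrays shared slide 1 and the Fv2E-PERK mock, 6, 12 and 24 h arrays shared slide 2.

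Palmitate raised most of the synthesis genes. Of 30 members 20 rose and 1 fell against untreated cells, where 7.42% of all entries rose, 12.6% fell and 20.1% changed in either direction. With scaling to 7 spike-in probes the counts were 19 and 0, where 1290 of 21280 entries were called, 87.6% of them higher. Of the 18 synthesis enzymes 15 rose and 0 fell (limma; 15 higher and 1 lower at an unadjusted p under 0.05), with a median change of 0.48 against -0.05 over all entries. On the single arrays, the median of the 18 enzymes lay 0.50, 0.48 and 0.54 above the untreated mean with palmitate and 0.15, 0.23 and 0.15 below it with oleate, so the 3 palmitate arrays were alike. The enzymes that rose run from the mevalonate steps (Hmgcs1, Pmvk, Mvd, Idi1, Fdps) through squalene (Fdft1, Sqle, Lss) to the sterol steps (Cyp51, Tm7sf2, Msmo1, Nsdhl, Hsd17b7, Sc5d, Dhcr7).

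Msmo1, which removes methyl groups from the sterol ring, had signals of 4.62, 4.89 and 4.83 in untreated cells, 4.76, 4.58 and 4.67 with oleate and 5.73, 5.85 and 5.78 with palmitate. The palmitate arrays were all above the other 6, and the change from untreated was 1.01 ± 0.08 (adjusted p = 0.00023). Cyp51, the lanosterol demethylase, had 0.26, 0.33 and 0.31 untreated, 0.21, 0.16 and 0.13 with oleate and 1.04, 1.09 and 1.32 with palmitate. It rose by 0.85 ± 0.08 (adjusted p = 0.00037), again without overlap. Hmgcs1, the synthase that makes HMG-CoA, had 3.14, 3.29 and 3.27 untreated, 3.22, 3.11 and 3.30 with oleate and 3.92, 4.02 and 4.12 with palmitate. Its untreated and oleate arrays overlapped, and palmitate raised it by 0.79 ± 0.08 (adjusted p = 0.00053). Dhcr7, the last enzyme of one branch of the pathway, had 0.31, 0.28 and 0.39 untreated, 0.06, -0.05 and 0.15 with oleate and 1.00, 1.18 and 1.09 with palmitate. It rose by 0.76 ± 0.07 (adjusted p = 0.00048) with no overlap between the groups.

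Fdps, which makes farnesyl diphosphate, rose by 0.78 ± 0.07. The other 10 enzymes that rose had changes of 0.29 to 0.61. Lss, which closes the sterol rings, rose by 0.61 ± 0.05, Nsdhl, a sterol dehydrogenase, by 0.61 ± 0.08, and Mvd, the decarboxylase of the mevalonate branch, by 0.59 ± 0.05. Tm7sf2, a sterol reductase, rose by 0.49 ± 0.05, Fdft1, squalene synthase, by 0.46 ± 0.05, and Hsd17b7, a sterol ketone reductase, by 0.45 ± 0.11. Idi1, an isomerase, rose by 0.44 ± 0.09, Sqle, squalene epoxidase, by 0.42 ± 0.06, Sc5d, a sterol desaturase, by 0.34 ± 0.09, and Pmvk, phosphomevalonate kinase, by 0.29 ± 0.06. The 3 enzymes that did not pass were Acat2, the thiolase that starts the pathway (0.21 ± 0.18, adjusted p = 0.44), Mvk, mevalonate kinase (-0.12 ± 0.07, adjusted p = 0.28), and Ebp, a sterol isomerase (-0.20 ± 0.07, adjusted p = 0.070).

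**Figure D1:**
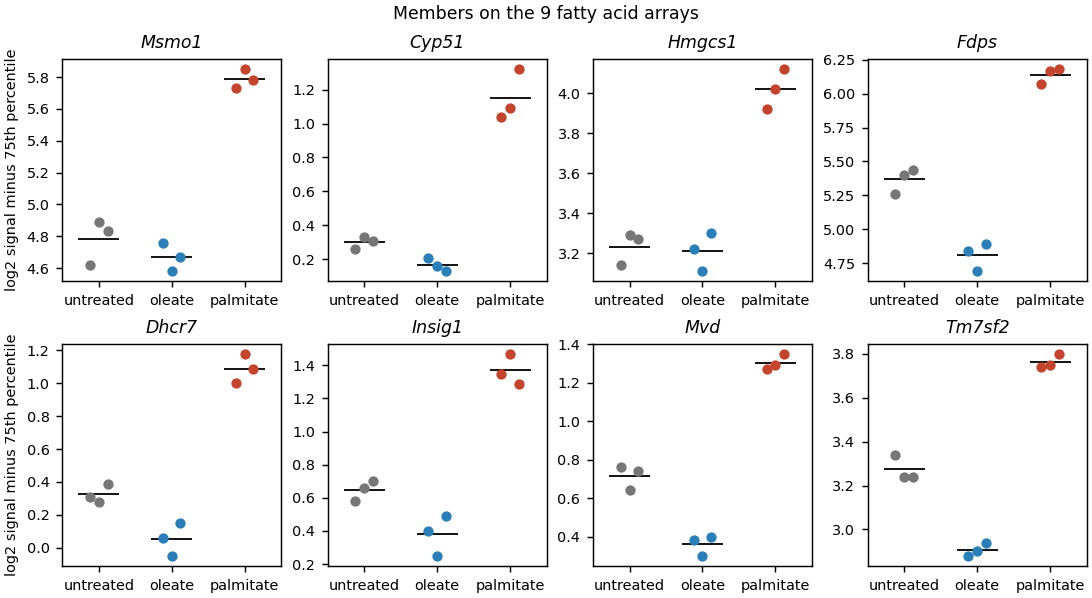
Log2 signal minus the array's 75th percentile (y axis, a separate range per gene) of 8 members on the 9 fatty acid arrays; points are arrays and lines are group means (n = 3). In every panel the 3 palmitate arrays lie above all untreated and oleate arrays; Fdps, Mvd and Tm7sf2 are also lower with oleate than untreated.

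Among the SREBP regulators, the feedback gene rose and the sensor did not pass. Insig1, itself a target of SREBP2, had 0.58, 0.66 and 0.70 untreated, 0.40, 0.25 and 0.49 with oleate and 1.35, 1.47 and 1.29 with palmitate; the palmitate arrays stood clear of the rest and the rise was 0.72 ± 0.08 (adjusted p = 0.00092). Srebf2, which encodes SREBP2, had 0.57, 0.51 and 0.42 untreated, 0.56, 0.48 and 0.73 with oleate and 0.86, 0.84 and 0.72 with palmitate. It rose by 0.31 ± 0.08 (adjusted p = 0.029), and its second probe rose by 0.27 ± 0.05. Insig2, the isoform that is not driven by SREBP2, had 4.0, 4.07 and 3.97 untreated, 4.01, 4.05 and 3.89 with oleate and 3.96, 4.03 and 3.97 with palmitate. Scap had 4.49, 4.48 and 4.40 untreated, 4.5, 4.53 and 4.43 with oleate and 4.49, 4.52 and 4.57 with palmitate. For both, the 3 groups overlapped, and the changes with palmitate were -0.03 ± 0.06 and 0.07 ± 0.05, neither past the threshold.

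The transport and efflux genes were mixed. Npc1, which exports cholesterol from lysosomes, rose by 0.37 ± 0.06 with palmitate (adjusted p = 0.0063), while its partner Npc2 (-0.12 ± 0.06) and the sterol carrier Stard4 (-0.16 ± 0.10) did not pass. In the LXR branch Nr1h3, which encodes LXR-alpha, had -2.32, -2.28 and -2.18 untreated, -2.39, -2.20 and -2.28 with oleate and -1.80, -1.73 and -1.54 with palmitate. It rose by 0.57 ± 0.08 (adjusted p = 0.0035), with no overlap, and its second probe by 0.45 ± 0.09. Abca1, the pump that loads apolipoprotein A-I, had -0.13, 0.05 and -0.10 untreated, -0.13, 0.03 and -0.32 with oleate and 0.26, 0.51 and 0.54 with palmitate, a rise of 0.49 ± 0.11 (adjusted p = 0.018). Abcg1, the pump for larger lipoproteins, went the other way: 3.42, 3.71 and 3.49 untreated, 3.10, 3.16 and 3.0 with oleate and 3.14, 3.28 and 3.18 with palmitate. It was the member that fell, by a log2 change of -0.34 ± 0.09 (adjusted p = 0.028), and its oleate arrays were as low, with a change of -0.46 ± 0.09 that did not pass (adjusted p = 0.066). Nr1h2, which encodes LXR-beta, had 4.42, 4.49 and 4.37 untreated, 4.37, 4.42 and 4.43 with oleate and 4.36, 4.36 and 4.46 with palmitate. Mylip had 1.83, 2.04 and 1.88 untreated, 1.84, 1.88 and 1.66 with oleate and 1.90, 1.90 and 1.88 with palmitate. Both overlapped across the 3 groups, with changes of -0.03 ± 0.05 and -0.02 ± 0.07 with palmitate.

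Without palmitate replicates 1 and 2, the arrays with skeletal muscle transcripts, the median change of the 18 enzymes was 0.54. Fewer members passed than with all 3 palmitate arrays. Insig1 changed by 0.64 and Nr1h3 by 0.72. Abca1 (0.60), Abcg1 (-0.36), Srebf2 (0.22) and Npc1 (0.29) did not pass. Leaving out 1 array at a time, Hsd17b7, Sc5d, Srebf2, Abca1 and Abcg1 lost their call under some omissions, in the same direction and with an adjusted p of at most 0.099. The setting without replicates 1 and 2 leaves 1 palmitate array, alone on its slide, whose spread is assumed to be that of the other groups. In the authors' deposited matrix values, 0 members passed with palmitate (limma, 2 at an unadjusted p under 0.05), where 544 of 21271 entries passed. The array constants of those values differ from the 75th percentile by -0.49 to 0.19. Their synthesis median was 0.25 where the median of all entries was -0.27. The heart muscle transcripts were low on all 3 palmitate arrays, the beta cell median was 3.58 to 3.68 there against 3.88 to 3.92 untreated, and their part in these changes was not tested.

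With oleate, few members passed, and those that did were lower. Against untreated cells 0 members rose and 3 fell (limma; 1 and 12 at an unadjusted p under 0.05), where 0.334% of all entries rose, 0.503% fell and 0.836% changed in either direction. All 3 were synthesis enzymes that rose with palmitate. Fdps had 5.26, 5.40 and 5.44 untreated, 4.84, 4.69 and 4.89 with oleate and 6.07, 6.17 and 6.18 with palmitate. The 3 groups were fully separate: oleate lowered it by a log2 change of -0.56 ± 0.07 (adjusted p = 0.019) and palmitate raised it by 0.78 ± 0.07 (adjusted p = 0.00050). Mvd had 0.76, 0.64 and 0.74 untreated, 0.38, 0.30 and 0.40 with oleate and 1.27, 1.29 and 1.35 with palmitate, a change of -0.35 ± 0.05 with oleate (adjusted p = 0.031). Tm7sf2 had 3.34, 3.24 and 3.24 untreated, 2.88, 2.90 and 2.94 with oleate and 3.74, 3.75 and 3.80 with palmitate, a change of -0.37 ± 0.05 with oleate (adjusted p = 0.019). Both comparisons share the untreated arrays. The estimate with oleate was below 0 for 15 of 18 enzymes, with a median of -0.18 against -0.05 over all entries. The 3 calls rest on the processing: 0 members passed with spike-in scaling, in the deposited matrix values, without the filter on dim probes or with a replicate block, and leaving out 1 array gave 0 to 3, with 0 without untreated replicate 3 or without any 1 of the 3 oleate arrays and 1 without untreated replicate 1.

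**Figure D2:**
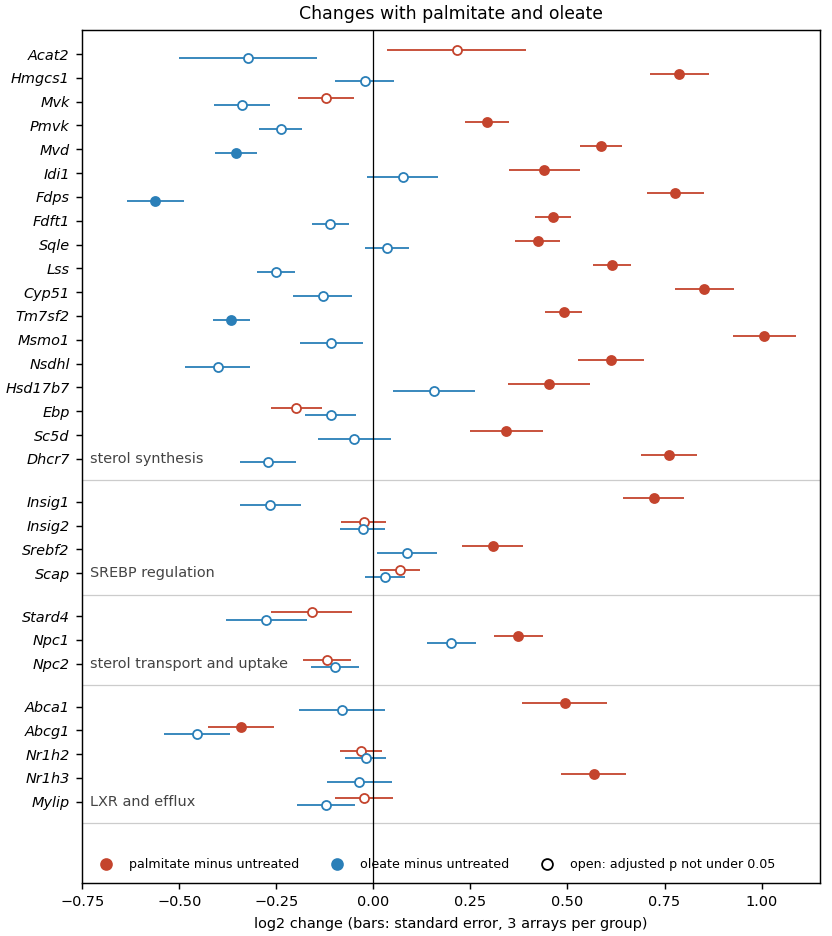
Log2 change from untreated cells (x axis) of the 30 members, by role, with palmitate (red) and oleate (blue); bars are standard errors of the limma fit (n = 3 arrays per group) and open points did not reach an adjusted p under 0.05. The 15 filled red points among the synthesis enzymes all lie right of 0, and the 3 filled blue points lie left of it.

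Palmitate and oleate were also compared directly, on the same arrays. Against oleate, 17 members were higher with palmitate and 0 lower (limma, 22 and 0 at an unadjusted p under 0.05). Of all entries 7.48% were higher, 6.27% lower and 13.7% either. With spike-in scaling 18 members were higher and 0 lower, where 1379 of 21280 entries were called, 93.0% of them higher. On the percentile scale 14 of the 18 enzymes were higher, with a median difference of 0.69 against 0.00 over all entries. Fdps differed by 1.34 ± 0.07 (adjusted p = 3.9e-05), Msmo1 by 1.12 ± 0.08, Dhcr7 by 1.03 ± 0.07, Nsdhl by 1.01 ± 0.08, Insig1 by 0.99 ± 0.08 and Cyp51 by 0.98 ± 0.08. Nsdhl had 0.15, -0.01 and 0.10 untreated, -0.31, -0.38 and -0.27 with oleate and 0.74, 0.52 and 0.82 with palmitate, so its 3 groups did not overlap either, although its change with oleate (-0.40 ± 0.08, adjusted p = 0.083) did not pass. Abca1 (0.57 ± 0.11) and Nr1h3 (0.60 ± 0.08) were the members outside synthesis and SREBP regulation that were higher with palmitate than with oleate. Fewer members were higher without palmitate replicates 1 and 2. In the deposited matrix values 1 member was higher, where 406 of 21271 entries were called.

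Other genes of sterol biology were read from a list of 35, of which 33 were tested. With palmitate 8 rose and 1 fell, where 7.42% of all entries rose and 12.6% fell (limma). With spike-in scaling 5 rose and 0 fell, where 1290 of 21280 entries were called. With oleate 0 rose and 1 fell (limma; 1 and 3 at an unadjusted p under 0.05), where 0.334% and 0.503% of all entries did. Those past a change of 0.5 with palmitate were Stard5, a soluble cholesterol carrier, at 1.33 ± 0.10, and Tmem97, a sterol-regulated membrane protein, at 0.76 ± 0.06. The stress references rose as well: Atf3, a stress-induced transcription factor, by 2.62 ± 0.09, Trib3, a pseudokinase downstream of ATF4, by 1.4 ± 0.08, Ddit3, which encodes CHOP, by 1.00 ± 0.07, and Asns, asparagine synthetase, by 0.60 ± 0.13. With oleate none of these 4 passed, at changes of -0.15 to 0.18.

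In the PERK experiment the scale itself decides many directions. The median change of all entries was -0.23, -0.19, -0.20 and -0.07 at 6, 12, 24 and 48 h against the Fv2E-PERK mock, and 0.44, 0.54, 0.73 and 0.52 after scaling to the spike-in probes, where 89.4%, 88.0%, 93.5% and 88.4% of the entries called were higher. Changes are therefore also given relative to the median entry, which a shift of the scale leaves unaltered. By an F test over the 4 times against mock 27 of 30 members changed, where 86.9% of all entries did. With spike-in scaling 16 of 30 members did, where 16817 of 23388 entries did. On the percentile scale Idi1 (adjusted p = 0.053), Sc5d (0.12) and Insig1 (0.052) did not pass.

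On the percentile scale AP20187 gave calls in both directions among the synthesis enzymes; with spike-in scaling the calls were all higher. The spike-in scale rests on only 7 probes. Their mean log2 signal was 12.94 for replicate 1 of the 48 h group but 12.37 for replicate 2. The Fv2E-PERK mock arrays lay closer together, 12.34 against 12.39. How far this spread accounts for calls that were lost or turned with spike-in scaling was not tested. At 6 h 8 members rose and 15 fell, where 24.9% of entries rose, 40.0% fell and 64.9% changed; with spike-in scaling 8 rose and 0 fell. At 12 h 3 rose and 19 fell (27.2%, 40.5% and 67.7% of entries; 8 and 1 with spike-in scaling), and at 24 h 4 rose and 17 fell (27.0%, 40.4% and 67.4%; 14 and 1). At 48 h 5 rose and 16 fell (27.2%, 34.6% and 61.8%; 10 and 3). Of the 18 enzymes 6, 1, 2 and 3 rose and 8, 10, 9 and 7 fell at the 4 times. With spike-in scaling 6, 6, 11 and 7 of the 18 rose and 0 fell, and 14, 13, 17 and 15 lay above 0. On that scale 10174, 11926, 13885 and 11410 of 23388 entries were called, 89.4%, 88.0%, 93.5% and 88.4% of them higher. Relative to the median entry the median of the enzymes was -0.01, -0.15, -0.08 and -0.04, with 9, 8, 8 and 8 enzymes above that entry.

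Lss was the enzyme called higher at all 4 times. It had 0.01 and -0.08 in mock cells, 0.74 and 0.71 after 6 h, 0.43 and 0.31 after 12 h, 0.72 and 0.82 after 24 h and 1.17 and 1.09 after 48 h. All 8 treated arrays lay above both mock arrays, the change at 48 h was 1.16 ± 0.11 (adjusted p = 5.4e-05), and it was 1.75 with spike-in scaling. Fdft1 rose by 0.33 ± 0.07, 0.41 ± 0.07 and 0.80 ± 0.07 at 6, 24 and 48 h, and by 0.13 ± 0.07 at 12 h without passing. Pmvk, Cyp51, Hsd17b7 and Idi1 rose at 6 h, by 0.69 ± 0.09, 0.47 ± 0.11, 0.64 ± 0.16 and 0.29 ± 0.10, and did not pass at the later times; with spike-in scaling these 4 also passed at 12 and 24 h.

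Fdps, Tm7sf2 and Ebp fell at all 4 times on the percentile scale and passed at 0 of them with spike-in scaling. Tm7sf2 changed by -0.69 ± 0.07 at 6 h and -1.10 ± 0.07 at 48 h, and Ebp by -0.52 ± 0.09 at 6 h, -1.37 ± 0.09 at 24 h and -1.08 ± 0.09 at 48 h. Relative to the median entry Ebp stood at -0.29, -0.85, -1.17 and -1.01, although with spike-in scaling its change at 6 h was 0.15. Fdps changed by -0.79 ± 0.10, -1.10 ± 0.10, -0.71 ± 0.10 and -0.42 ± 0.10, and with spike-in scaling its change at 24 h was 0.22 and at 48 h 0.17. Mvk changed by -0.53 ± 0.07, -0.57 ± 0.07 and -0.82 ± 0.07 at 12, 24 and 48 h, but its second probe gave -0.09 ± 0.12 at 24 h and -0.01 ± 0.11 at 48 h, so its probes disagree. Acat2 fell at 6, 12 and 24 h (-0.79 ± 0.12, -0.66 ± 0.12 and -0.36 ± 0.12) and was higher at 48 h (0.55 ± 0.12), the member with calls in both directions; with spike-in scaling it was 0.06 at 12 h and 0.57 at 24 h. Msmo1, the enzyme with the largest rise on palmitate, passed at 0 of the 4 times, with changes of -0.32 ± 0.15, -0.13 ± 0.15, 0.23 ± 0.15 and 0.21 ± 0.15 (limma; 0 of 4 also at an unadjusted p under 0.05). With spike-in scaling it passed at 24 and 48 h, at 1.17 and 0.80.

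**Figure D3:**
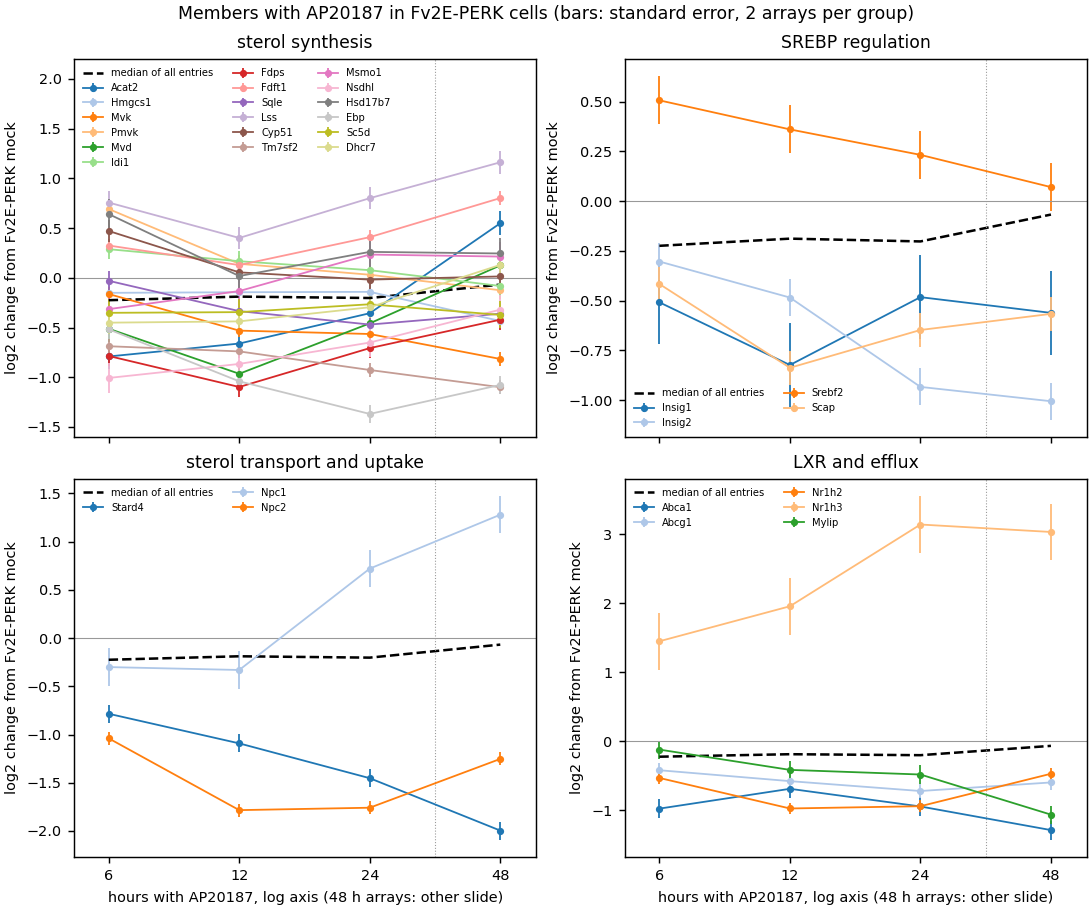
Log2 change from the Fv2E-PERK mock (y axis, a separate range per panel) at 6, 12, 24 and 48 h of AP20187 (log x axis) for the 30 members in 4 role panels; bars are standard errors (n = 2 arrays per group), the dashed line is the median of all entries, and the dotted vertical line separates the 48 h arrays, which lay on the other slide. Nr1h3 reaches 3.14 at 24 h and Npc1 1.28 at 48 h, Stard4 reaches -2.0 at 48 h, and the enzymes spread on both sides of the dashed line.

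The SREBP regulators did not move as one. Srebf2 had 0.05 and -0.09 in mock cells, 0.46 and 0.51 after 6 h, 0.48 and 0.20 after 12 h, 0.20 and 0.22 after 24 h and 0.01 and 0.09 after 48 h. Its change was 0.51 ± 0.12 at 6 h (adjusted p = 0.0062) and 0.36 ± 0.12 at 12 h (adjusted p = 0.027), and 0.07 ± 0.12 at 48 h did not pass. A second probe of Srebf2 gave -0.01 ± 0.11, -0.38 ± 0.11 and 0.80 ± 0.11 at those times, so the direction of this gene is uncertain with AP20187. Insig1 had 0.38 and 0.43 in mock cells, -0.24 and 0.03 after 6 h, -0.52 and -0.33 after 12 h, -0.41 and 0.25 after 24 h and -0.08 and -0.24 after 48 h. It fell at 12 h (-0.82 ± 0.21, adjusted p = 0.0083) and at 48 h (-0.56 ± 0.21, adjusted p = 0.046), a change that was 0.02 with spike-in scaling. Insig2 had 4.43 and 4.27 in mock cells, 4.04 and 4.06 after 6 h, 3.82 and 3.91 after 12 h, 3.50 and 3.34 after 24 h and 3.30 and 3.39 after 48 h, below both mock arrays at each time. It reached -1.01 ± 0.09 at 48 h (adjusted p = 4.3e-05), with -1.71 ± 0.11 from its second probe and -0.42 with spike-in scaling, where 6 h gave 0.36. Scap had 4.2 and 4.11 in mock cells, 3.73 and 3.74 after 6 h, 3.37 and 3.26 after 12 h, 3.55 and 3.47 after 24 h and 3.54 and 3.63 after 48 h. Its change was -0.84 ± 0.08 at 12 h and -0.57 ± 0.08 at 48 h, or 0.02 with spike-in scaling at 48 h.

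In sterol transport, Npc1 rose late while Stard4 and Npc2 fell. Stard4, which carries cholesterol through the cytosol and is a known SREBP target, had 2.5 and 2.40 in mock cells, 1.61 and 1.72 after 6 h, 1.28 and 1.43 after 12 h, 1.01 and 0.98 after 24 h and 0.41 and 0.49 after 48 h. The arrays of each later time lay below those of the time before. Its change was -2.0 ± 0.09 at 48 h (adjusted p = 2.0e-06) and -1.41 with spike-in scaling, while a second, noisier probe gave -0.77 ± 0.45 and did not pass. Npc2 had 5.11 and 5.09 in mock cells, 4.05 and 4.07 after 6 h, 3.36 and 3.27 after 12 h, 3.35 and 3.33 after 24 h and 3.85 and 3.84 after 48 h. It was lowest at 12 and 24 h (-1.78 ± 0.07 and -1.76 ± 0.07) and -1.25 ± 0.07 at 48 h (adjusted p = 3.5e-06). Npc1 had -1.28 and -1.23 in mock cells, -1.49 and -1.62 after 6 h, -1.37 and -1.80 after 12 h, -0.36 and -0.71 after 24 h and -0.06 and 0.11 after 48 h. It did not pass at 6 or 12 h and rose by 0.72 ± 0.19 at 24 h (adjusted p = 0.010) and 1.28 ± 0.19 at 48 h (adjusted p = 0.00057), so the 2 lysosomal partners moved in opposite directions. For all 3 the direction at 48 h was the same with spike-in scaling.

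The LXR branch held the largest rise of all members. Its targets fell on the percentile scale, and at 48 h only Abca1 of them passed with spike-in scaling. Nr1h3 had -3.18 and -3.56 in mock Fv2E-PERK cells, -1.95 and -1.90 after 6 h, -1.39 and -1.44 after 12 h, -0.28 and -0.19 after 24 h and -0.31 and -0.37 after 48 h. The second mock array, at -3.56, was not well above background, so the mock level rests on 1 array that was and 1 that was not. Every treated array was above both mock arrays, and the change was 1.45 ± 0.41, 1.95 ± 0.41, 3.14 ± 0.41 and 3.03 ± 0.41 (adjusted p = 0.014, 0.0031, 0.00023 and 0.00033). Without mock replicate 2 the changes were 1.26, 1.77, 2.95 and 2.84, and that at 6 h did not pass (adjusted p = 0.075). Its second probe gave 1.20 ± 0.21 to 2.87 ± 0.21. The wild-type mock arrays differed from each other, at -2.67 and -1.08, and this pair enters the shared error.

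On the percentile scale the other 4 genes of the branch were lower at 48 h; with spike-in scaling Abca1 alone of them passed, and Nr1h2 turned. Abca1 had -0.66 and -0.69 in mock cells, -1.74 and -1.57 after 6 h, -1.36 and -1.37 after 12 h, -1.39 and -1.85 after 24 h and -1.96 and -1.96 after 48 h. The change was -1.29 ± 0.14 at 48 h (adjusted p = 8.6e-05) and -0.70 with spike-in scaling, where 12 h gave 0.03. Abcg1 had 3.01 and 3.02 in mock cells, 2.55 and 2.64 after 6 h, 2.48 and 2.40 after 12 h, 2.33 and 2.27 after 24 h and 2.44 and 2.40 after 48 h. It changed by -0.42 ± 0.10 at 6 h and -0.60 ± 0.10 at 48 h, and with spike-in scaling by 0.24 and -0.01. Nr1h2 had 4.23 and 4.26 in mock cells, 3.70 and 3.73 after 6 h, 3.32 and 3.22 after 12 h, 3.24 and 3.37 after 24 h and 3.68 and 3.87 after 48 h. Its lowest change was -0.97 ± 0.09 at 12 h; at 48 h it was -0.47 ± 0.09, or 0.11 with spike-in scaling. Mylip had 1.78 and 1.93 in mock cells, 1.86 and 1.6 after 6 h, 1.45 and 1.42 after 12 h, 1.53 and 1.20 after 24 h and 0.82 and 0.75 after 48 h. It did not pass at 6 h and reached -1.06 ± 0.13 at 48 h (adjusted p = 0.00019), with -0.30 ± 0.33 from a second probe. Relative to the median entry, Abca1, Abcg1, Nr1h2 and Mylip stood at -1.22, -0.53, -0.40 and -1.0 after 48 h.

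**Figure D4:**
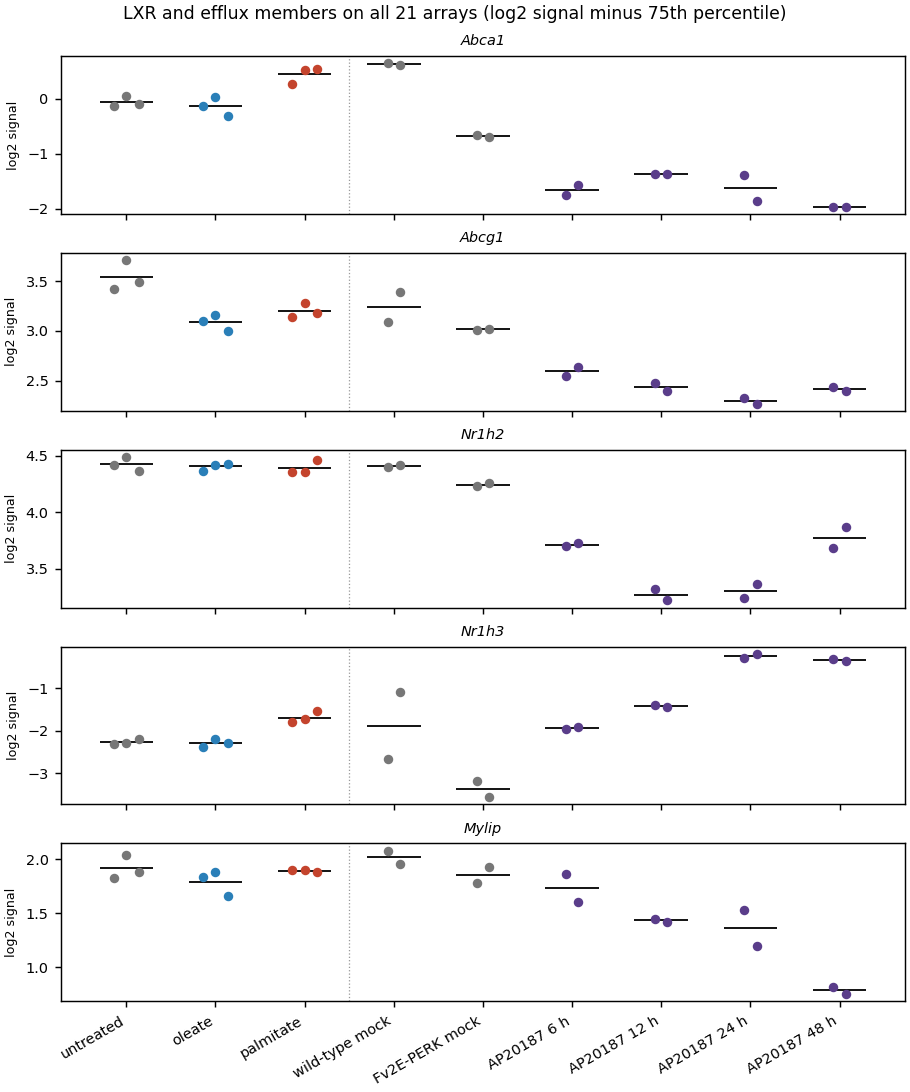
Log2 signal minus the array's 75th percentile (y axis, a separate range per gene) of the 5 LXR and efflux members on all 21 arrays; points are arrays, lines are group means, and the dotted line separates the 2 experiments. Nr1h3 rises from -3.18 and -3.56 in mock Fv2E-PERK cells to -0.31 and -0.37 after 48 h, whereas Abca1 and Abcg1 are lower on every AP20187 array than on both Fv2E-PERK mock arrays; with spike-in scaling Abcg1 turns at 6, 12 and 24 h and Abca1 at 12 h.

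The 48 h arrays lay on the slide of the wild-type mock, and the Fv2E-PERK mock on the other, so for 48 h against its own mock the slide and the treatment cannot be told apart. Within slide 1 the comparison of 48 h with the wild-type mock, added after the slides were seen, differs in genotype instead. There 12 members were higher and 11 lower, where 27.5% of entries were higher, 36.3% lower and 63.8% either. With spike-in scaling 14 were higher and 2 lower, where 12672 of 23388 entries were called, 89.4% of them higher. On the percentile scale Acat2, Fdft1, Lss, Npc1 and Nr1h3 were higher against both mock groups. Lower against both were Mvk, Tm7sf2, Ebp, Insig2, Scap, Stard4, Npc2, Abca1, Abcg1, Nr1h2 and Mylip. With spike-in scaling Nr1h2 and Scap turned against both, and Mvk and Ebp turned against the wild-type mock. The second probe of Mvk gave 0.109 ± 0.115 against the wild-type mock and -0.013 ± 0.115 against the Fv2E-PERK mock, neither past the threshold. Second probes of Tm7sf2, Insig2 and Nr1h3 passed in the same direction against both. Those of Mylip, Stard4 and Fdft1 kept the direction but passed against the wild-type mock only, and that of Fdft1 was well above background on 0 arrays. The values against the wild-type mock were 1.53 ± 0.41 for Nr1h3 (0.73 without wild-type mock replicate 1 and 2.33 without replicate 2), 1.36 ± 0.19 for Npc1, 1.37 ± 0.11 for Lss, -1.65 ± 0.09 for Stard4, -1.19 ± 0.07 for Npc2 and -2.59 ± 0.14 for Abca1. On the percentile scale 9 of the 18 enzymes were higher and 3 lower there, against 3 and 7 with the Fv2E-PERK mock as reference. With spike-in scaling the counts were 11 and 0 against the wild-type mock and 7 and 0 against the Fv2E-PERK mock. Hmgcs1 was the member called in opposite directions: it was 0.95 ± 0.08 higher than in the wild-type mock and -0.43 ± 0.08 against the Fv2E-PERK mock, where spike-in scaling gave 0.15.

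The mock groups themselves differed. Against the wild-type mock 10 members were higher and 2 lower in Fv2E-PERK mock cells, where 9.23% of entries were higher, 10.8% lower and 20.0% either. With spike-in scaling 2 were higher and 2 lower, where 1414 of 23388 entries were called. On the percentile scale 8 of the 18 enzymes were higher and 0 lower (limma, 11 and 0 at an unadjusted p under 0.05). Their median was 0.32 against -0.05 over all entries. Hmgcs1 had 2.25 and 2.39 in the wild-type mock and 3.73 and 3.68 in the Fv2E-PERK mock, a difference of 1.38 ± 0.08 (adjusted p = 2.0e-05). Abca1 had 0.64 and 0.60 against -0.66 and -0.69, a difference of -1.30 ± 0.14 (adjusted p = 0.00049). Genotype and slide cannot be told apart here. Leaving out 1 array gave 4 to 11 members, with 4 without Fv2E-PERK mock replicate 1 and 5 without replicate 2, and testing without the filter on dim probes gave 5.

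**Figure D5:**
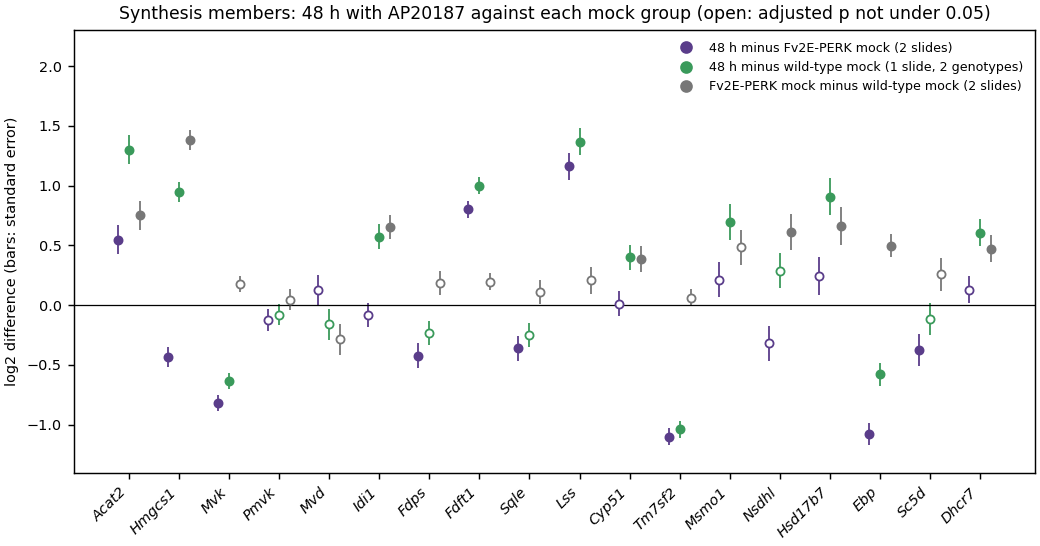
Log2 difference (y axis) of the 18 synthesis enzymes at 48 h of AP20187 against the Fv2E-PERK mock (purple), at 48 h against the wild-type mock (green), and of the Fv2E-PERK mock against the wild-type mock (grey); bars are standard errors (n = 2 arrays per group) and open points did not reach an adjusted p under 0.05. Lss and Fdft1 are high and Tm7sf2 low against both mock groups, while Hmgcs1 is at 0.95 against one and -0.43 against the other (0.15 with spike-in scaling).

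From 6 to 48 h, 10 members rose and 13 fell (33.2% of entries rose, 27.6% fell and 60.8% changed). The 2 times lay on different slides, so slide and time cannot be told apart. Npc1 (1.58 ± 0.19), Nr1h3 (1.58 ± 0.41) and Acat2 (1.34 ± 0.12) rose the most, and Stard4 (-1.21 ± 0.09) and Mylip (-0.94 ± 0.13) fell the most. Second probes of Stard4 and Mylip gave -1.16 ± 0.45 and -0.59 ± 0.33 and did not pass.

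Members raised by palmitate were followed in the PERK experiment, which has its own controls. Of the 20, 8 rose and 7 fell after 6 h of AP20187. After 12 h 3 rose and 9 fell, after 24 h 4 rose and 7 fell, and after 48 h again 4 rose and 7 fell. Of all entries 24.9% to 27.2% rose and 34.6% to 40.5% fell at these times. Fdft1, Lss, Npc1 and Nr1h3 were the 4 higher at 48 h, and Hmgcs1, Fdps, Sqle, Tm7sf2, Sc5d, Insig1 and Abca1 the 7 lower, of which Hmgcs1, Fdps, Sqle, Sc5d and Insig1 turned with spike-in scaling. The stress references rose in both experiments: Atf3 by 6.52 ± 0.08 at 48 h, Trib3 by 3.28 ± 0.12, Ddit3 by 1.62 ± 0.08 and Asns by 0.80 ± 0.12.

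Among the 33 other sterol genes tested, 8 rose and 19 fell at 48 h, where 27.2% of all entries rose and 34.6% fell (limma). With spike-in scaling 10 rose and 0 fell, where 11410 of 23388 entries were called, 88.4% of them higher. The values that follow are on the percentile scale. Stard5 rose by 2.47 ± 0.12, after 1.33 ± 0.10 with palmitate. Abcg4, a sterol pump, rose by 1.42 ± 0.21 from a dim mock mean of -3.31 (standard deviation 0.39, n = 2). That mean is close to the -3.56 at which Nr1h3 was not well above background, so the size of the Abcg4 rise is uncertain. Erlin1 and Erlin2, partners in degrading proteins of the endoplasmic reticulum, moved apart, by 1.14 ± 0.09 and -1.06 ± 0.12. Osbp, an oxysterol-binding protein, rose by 0.58 ± 0.15. Lrp8, a lipoprotein receptor, changed by -1.20 ± 0.15, Acss2, which makes acetyl-CoA from acetate, by -1.13 ± 0.10, Abca7, a lipid pump, by -0.99 ± 0.10 and Srebf1, the SREBP of fatty acid synthesis, by -0.93 ± 0.14. Gramd1a, a sterol transfer protein, changed by -0.91 ± 0.10, the lysophospholipid acyltransferase Lpcat3 by -0.65 ± 0.07, the lipoprotein receptor Vldlr by -0.64 ± 0.12, the lysosomal lipase Lipa by -0.63 ± 0.08 and the ubiquitin ligase Rnf139 by -0.62 ± 0.11. Soat1, which esterifies cholesterol, changed by -0.58 ± 0.12 and Mbtps1, a protease that releases SREBP, by -0.54 ± 0.07. With spike-in scaling Stard5 (3.06), Abcg4 (2.01), Erlin1 (1.73) and Osbp (1.17) kept their call, and no named fall passed; Lrp8 was at -0.61, Lipa at -0.048, Soat1 at 0.008 and Mbtps1 at 0.041. The beta cell genes were lower on the AP20187 arrays, the heart muscle median was -4.38 to -4.06 at 48 h against -6.12 to -5.72 in mock Fv2E-PERK cells, and their part in these changes was not tested.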

How the data were processed

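RNA from MIN6m9 cells was hybridised to 21 one-colour Agilent mouse arrays (9 in the fatty acid and 12 in the PERK experiment), and the authors deposited scanner intensity values from Feature Extraction 10.7.1.1, per the file headers and the submitters' processing notes. These intensity values are background-subtracted by that software, per the file headers. The log2 values of the authors' deposited series matrix equal the scanner values less an array constant and a value per gene; that baseline is not known, and the array medians ran from -0.32 to 0.35. On the fatty acid arrays their array constants differ from the 75th percentile.

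Here the log2 processed signal was taken minus each array's 75th percentile, outlier spots and control spots were left out, and repeat spots were averaged. Of 55681 probes, 26582 had a symbol through their accession in a RefSeq table (GRCm38.p6); the brightest probe over the 21 arrays stood for each gene, giving 37208 entries with 20145 symbols. An entry was tested where every array of 1 or more groups in its experiment was well above background (21281 and 23388 entries). Group means were fitted in each experiment with limma 3.58.1 in R 4.3.3, with Benjamini-Hochberg adjustment over all entries and a threshold of 0.05; adjusted p-values in the text come from this fit. The fit was tested on simulated data. The number of arrays limits the precision. No column was left without a sample.

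Members and lists were chosen with earlier results of these data known. Values per array are given for the 6 members with the largest called change with palmitate against untreated, with palmitate against oleate and at 48 h against mock, for all SREBP regulators and LXR genes, and for members called in opposite directions with the 2 fatty acids; other sterol genes are named where called with a change of at least 0.5, except 1 that is not reported here. Hmgcs1 in the mock groups was named after its values were seen. The second wild-type mock array carries the number 1 in its source name and 2 in its title; the title was used. Alternatives were quantile and spike-in scaling, normexp, the deposited matrix, filters, the mean over probes, the slide, a replicate block and each array left out. Replicate numbers were not shown to pair the samples. Members without a promoter window in the RefSeq table are printed without sequence: Fdps, Fdft1, Sqle, Stard4, Npc1 and Abcg1.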

Additional observations from a re-analysis of the deposited data

Results flagged for a closer look

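The change with AP20187 differed between 48 h and 6 h for 23 members, by limma's test of that difference, and each value below is the log2 signal at 48 h minus that at 6 h. The 48 h arrays lay on another slide than the 6 h arrays, so time and slide cannot be told apart for any of them. With spike-in scaling 8 members passed, where 8433 of 23388 entries did.

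Among the synthesis enzymes, 8 rose between the 2 times. The differences were 1.34 for Acat2, 0.69 for Nsdhl, 0.64 for Mvd, 0.58 for Dhcr7, 0.53 for Msmo1, 0.48 for Fdft1, 0.41 for Lss and 0.36 for Fdps. A further 8 enzymes fell, with differences of -0.82 for Pmvk, -0.65 for Mvk, -0.56 for Ebp, -0.46 for Cyp51, -0.41 for Tm7sf2, -0.37 for Idi1, -0.33 for Sqle and -0.28 for Hmgcs1. Of the SREBP regulators Insig2 differed by -0.70 and Srebf2 by -0.44, and the second probe of Srebf2 differed by 0.81. Second probes also disagreed for Nsdhl, at -0.26 ± 0.25, and for Mvk, at 0.002 ± 0.12, neither past the threshold. Those of Tm7sf2 (-0.15 ± 0.08), Mylip (-0.59 ± 0.33) and Stard4 (-1.16 ± 0.45) kept the direction but did not pass. That of Fdft1 (0.07 ± 0.22) did not pass and was well above background on 0 arrays. The second probes of Pmvk, Insig2 and Nr1h3 passed in the direction of the first.

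In sterol transport Npc1 differed by 1.58, Stard4 by -1.21 and Npc2 by -0.21. In the LXR branch Nr1h3 differed by 1.58 and Mylip by -0.94.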

How the results depend on the processing

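Scaling to the spike-in probes moved the PERK results the most. It gave 8, 9 and 13 members at 6, 12 and 48 h against mock, 8 for 48 h against 6 h, 4 for the 2 mock groups and 16 by the F test, and 0 with oleate (limma; 0 higher and 9 lower at an unadjusted p under 0.05). Of 23388 entries 10174, 11926 and 11410 were called at those times, 8433 for 48 h against 6 h and 1414 for the 2 mock groups. By the F test 16817 of 23388 were, and with oleate 4 of 21280. With spike-in scaling these changes turned positive. At 6 h they were Abcg1 0.24, Dhcr7 0.21, Ebp 0.15, Insig2 0.36, Mvd 0.15, Nr1h2 0.13, Sc5d 0.31 and Scap 0.25. At 12 h they were Abca1 0.035, Abcg1 0.15, Acat2 0.064, Dhcr7 0.29, Insig2 0.24, Mvk 0.19, Mylip 0.31, Sc5d 0.38 and Sqle 0.39. At 24 h they were Abcg1 0.21, Acat2 0.57, Cyp51 0.91, Dhcr7 0.64, Fdps 0.22, Hmgcs1 0.79, Mvd 0.47, Mvk 0.37, Mylip 0.45, Nsdhl 0.28, Sc5d 0.67, Scap 0.28, Sqle 0.46 and Tm7sf2 0.004. At 48 h they were Fdps 0.17, Hmgcs1 0.15, Insig1 0.023, Nr1h2 0.11, Sc5d 0.21, Scap 0.019 and Sqle 0.22, and against the wild-type mock Ebp 0.13, Mvk 0.068, Nr1h2 0.071, Pmvk 0.63 and Scap 0.18. Elsewhere, normexp gave Ebp 0.004 at 6 h, and the mean over probes gave Srebf2 -0.008 at 12 h and 0.19 for 48 h against 6 h, and Stard4 -0.022 between the mock groups.

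In the deposited matrix values 0 members passed with palmitate (limma, 2 at an unadjusted p under 0.05), 0 with oleate (0 at an unadjusted p under 0.05) and 1 for palmitate against oleate. Of 21271 entries 544, 184 and 406 passed in these comparisons. With oleate 0 also passed without the filter on dim probes, with the replicate block and without palmitate replicates 1 and 2 (limma; 1 higher and 11 lower at an unadjusted p under 0.05 in each). Without those 2 arrays fewer members passed with palmitate than with all arrays. Without the filter 5 passed between the mock groups, where 3233 of 37208 entries did. Leaving out 1 array gave 17 to 20 members with palmitate, 0 to 3 with oleate, 4 to 11 between the mock groups and 23 to 28 by the F test. The replicate block gave 19 members with palmitate, 17 for palmitate against oleate and 28 by the F test. Deviations of samples with the same number correlated at -0.03 to 0.04 on the fatty acid arrays and at -0.01 to 0.13 on the PERK arrays. On the PERK arrays the median was 0.06 for the same number and -0.06 for different numbers. With 2 arrays per group these medians mirror each other. The correlations were small, and the numbers were not taken as pairs. The slide as a block could not be fitted in the PERK experiment, where each group lies on 1 slide. The cause of these shifts was not tested.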
